A study of Mus musculus with 16 samples.

Results

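The RNAs of 41 integrin subunits and focal adhesion proteins, out of 12900 RNAs in the table, were followed in protrusions and cell bodies of mouse fibroblasts. They were chosen by name and not by any measured value. The integrins were the rows whose symbol is Itg followed by a or b and a number, v or m, which gave 7 α subunits and 7 β subunits. The other 27 were a list of cytoplasmic proteins of the adhesion site, and all 27 names were found in the table. Itgal, Itgae and Itga2b have symbols of another form and were not included, and no row matched Itgam.

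Integrins are transmembrane receptors made of an α and a β chain that bind the extracellular matrix outside the cell and, through talin and kindlin, the actin cytoskeleton inside it. Around their cytoplasmic tails a focal adhesion assembles, in which vinculin, the ILK-PINCH-parvin complex, tensins and zyxin-family proteins couple to actin, while focal adhesion kinase, Src, paxillin and the Cas-Crk adaptors signal. In migrating fibroblasts new adhesions form in the advancing protrusion. The integrin chains are made on the rough endoplasmic reticulum and reach the surface through the secretory pathway, whereas the cytoplasmic components are made on free ribosomes.

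NIH/3T3 cells, a line of mouse embryonic fibroblasts, were grown in DMEM with 10% calf serum. Both lines carried a doxycycline-inducible, lentivirally delivered β-globin coding sequence and received 1 µg/ml doxycycline for 3 days, so the controls also overexpressed an RNA. In HBB cells the coding sequence was followed by the β-globin 3′ UTR, and in Pkp4 cells by that of Pkp4, a plakophilin whose RNA is found at protrusions. Serum-starved cells were plated for 2 h on filters with 3.0 µm pores, and lysophosphatidic acid (LPA), a serum lipid that makes fibroblasts extend protrusions, was placed below for 1 h. Fixation was light, in 0.3% paraformaldehyde over 10 min. The protrusions (Ps) beneath the filter and the cell bodies (CB) above it were then scraped off separately. There were 4 replicates of each fraction of each line, 16 samples in all, which the study calls independent. Whether each line was a single clone is not stated, so a difference between the lines cannot be told apart from a difference between 1 pair of cell lines. The comparison of Ps with CB asks which RNAs lie at protrusions, and that between the lines whether expressing a localized 3′ UTR alters this.

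Between about 18660300 and 31260800 reads stood behind the RNAs of a sample, and the value of 3 reads, used as the detection floor, was 0.089 to 0.176 CPM (reads per 1000000 of the scaled library size). Of 10 fibroblast markers 9 were in the table, with summed levels of 19320 to 31660 CPM in every sample and 7 of the 9 lower in Ps than in CB of both lines, whereas 4 of 6 epithelial, 4 of 6 leukocyte and 3 of 5 endothelial markers were not in it and the remaining ones of each list summed to at most 20.4, 8.04 and 1.91 CPM. The CB samples numbered 4 were the lowest of their group in both lines. The median member lay 0.11 lower there on the log2 scale than in the other HBB CB samples and 0.19 lower in Pkp4 CB. Other samples deviated as well, with Pkp4 CB replicate 2 at 0.149 above the rest of its group, farther than HBB CB replicate 4. Counts are also given without both CB samples numbered 4, a choice made after seeing the data. The nuclear RNAs, 4 of 5 in the table, summed to 629 to 763 CPM in HBB CB against 223 to 370 CPM in HBB Ps, most of it Neat1. Of the 4, Malat1 and Neat1 were lower in HBB Ps, at a log2 fold change (FC) of −1.85 and −1.48, Snhg1 was higher, at 0.35, and Kcnq1ot1 was not called, at −0.55 (adjusted p = 0.161). How far the nucleus in the CB fraction bears on the members was not tested.

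All values are CPM on the authors' scaled library sizes, that is, shares of the RNA of a fraction, so less RNA of a gene and more RNA of others cannot be told apart. This scaling bears on direction. With reads scaled to plain totals instead, the median of all 12900 RNAs moved from 0.0060 to −0.23 in HBB cells and from 0.011 to −0.25 in Pkp4 cells. The split of members higher and lower in Ps then went from 6 and 18 to 1 and 27 in HBB cells, and from 5 and 15 to 1 and 27 in Pkp4 cells. The share of all RNAs called with totals was not counted, so these splits are no result about the members alone. Against the median RNA of the same fit, the median of the 14 integrin subunits lay at −0.567 with the deposited scaling and −0.565 with totals in HBB cells, and at −0.483 and −0.484 in Pkp4 cells. Rescaling moves every RNA of a sample by the same amount, so these distances were bound to stay alike and do not test the scaling.

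In HBB cells the RNAs of integrins were lower in protrusions than in cell bodies, whereas those of the cytoplasmic adhesion proteins moved both ways. Of the 41 members, 18 were lower in Ps at an adjusted p under 0.05, against 28.9% of all RNAs, and 6 were higher, against 28.3%. The 18 lower members are 43.9% of the 41, and the 6 higher ones 14.6%. Among the 14 integrin subunits 10 were lower and 0 higher, with a median log2 FC of −0.56, and among the 27 cytoplasmic members 8 were lower and 6 higher, with a median of −0.00075. Over all RNAs the median was 0.0060, and over the 41 members −0.21, or −0.136 without HBB Ps replicate 4. By the study's threshold, a 2-fold change with an unadjusted p under 0.05, no member was above 2-fold, against 4.54% of all RNAs, and 3 were below the inverse of 2-fold, against 4.0%. These were Itga5, Itga3 and Itga10, and Itga10 was at −0.976 without HBB Ps replicate 3. Without HBB CB replicate 4 Crkl was also past 2-fold, at −1.06. Leaving out HBB CB replicate 3 reduced the higher members from 6 to 3, as Parva, Ptk2 and Lpp were lost. Without both CB samples numbered 4 the counts were 4 higher and 19 lower, with Ptk2 and Lpp lost. The share of all RNAs called in these reduced fits was not counted.

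**Figure D1:**
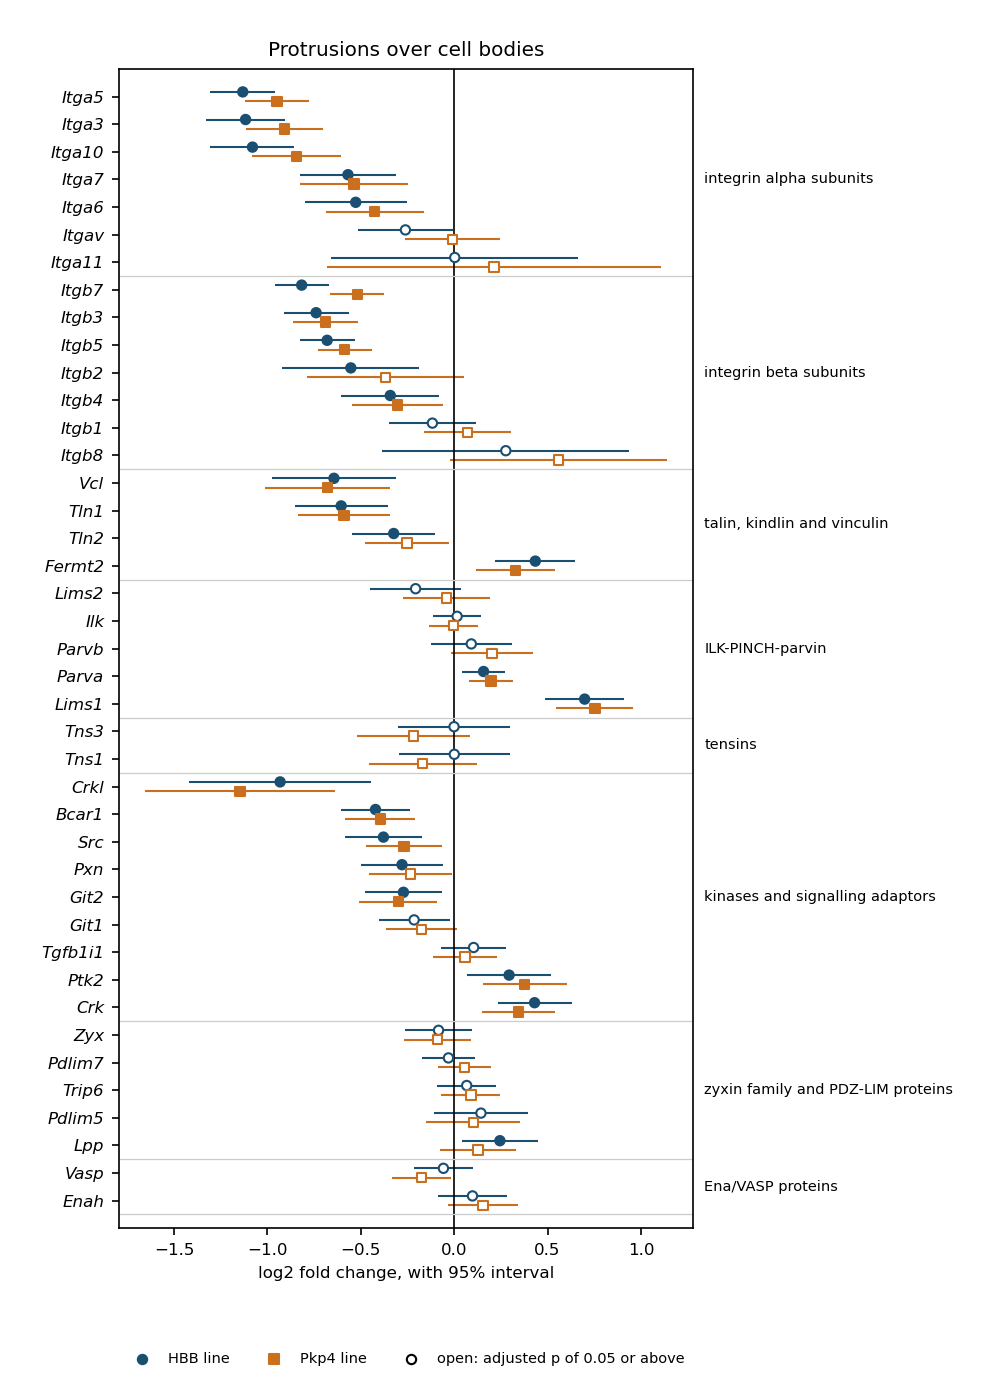
Log2 FC of Ps over CB for the 41 members, ordered by role, in HBB cells (blue circles) and Pkp4 cells (orange squares), with bars for the 95% interval of limma's moderated test and open symbols for an adjusted p of 0.05 or above (n = 4 per group). Most integrin subunits lie left of 0, and Lims1 at 0.70 and 0.75 lies farthest to the right in both lines.

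The integrin subunits spanned a wide range of levels. Per kilobase of exon, Itgb5 was the highest member, at 394 CPM per kb in HBB CB, followed by Itga5 at 155, and Itga3 at 91.3 came after Zyx at 108. Itgb1, the common β chain, stood at 41.2 CPM per kb, below the α chains Itga5 and Itga3 that pair with it and beside Itgb7 at 44.7. Itgb3 stood at 20.7, Itgav at 4.42 and Itga6 at 1.44 CPM per kb. At the other end were Itga11 and Itgb8, at 0.130 and 0.143 CPM per kb. Exon length is the union of annotated exons, so a gene with long unused exons is set too low on this scale.

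Itga5, the α chain of the classical fibronectin receptor, was among the members that fell most. Its level was 772, 758, 794 and 728 CPM in the 4 HBB CB samples and 357, 346, 308 and 385 CPM in Ps, and in Pkp4 cells 652, 730.1, 732 and 572 CPM in CB and 347, 352, 328 and 357 CPM in Ps. In each line every Ps sample lay below every CB sample. Its log2 FC was −1.13 ± 0.083, adjusted p = 9.02e-09 in HBB cells, 2.19-fold lower, and −0.95 ± 0.082, adjusted p = 8.02e-08 in Pkp4 cells (± is the SE throughout for a log2 FC). The gene lies at chr15:103344286-103366763 of mm10 on the minus strand.

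Itga3, the α chain of a laminin receptor, measured 522, 484, 586 and 495 CPM in HBB CB and 243, 245, 216 and 256 CPM in HBB Ps. In Pkp4 cells it was 331, 374, 439 and 301 CPM in CB and 193, 188, 173 and 208 CPM in Ps. The fractions did not overlap in either line, with log2 FC of −1.12 ± 0.10, adjusted p = 7.56e-08, and −0.91 ± 0.10, adjusted p = 8.06e-07. Itga10, a collagen-binding α chain known from cartilage, was far scarcer, at 18.1, 17.9, 16.8 and 17.3 CPM in HBB CB and 8.70, 9.11, 6.55 and 8.90 CPM in Ps, and fell by a similar factor (−1.08 ± 0.11, adjusted p = 2.20e-07). In Pkp4 cells it was 13.05, 14.4, 13.3 and 11.7 CPM in CB and 7.55, 7.42, 6.03 and 8.45 CPM in Ps (−0.84, adjusted p = 7.48e-06), again without overlap. In the annotation 33.5% of the exon bases of Itga10 are shared with a gene model on the same strand, so its reads are uncertain.

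Itga6, another laminin-binding chain, fell in both lines (log2 FC −0.53, adjusted p = 0.00214, and −0.43, adjusted p = 0.00755), as did Itga7, the laminin-binding chain typical of muscle (−0.57, adjusted p = 0.00071, and −0.54, adjusted p = 0.00301). The fractions did not overlap for either gene. Itgav, the α chain of the vitronectin receptors, was not called, with 43.6 to 53.3 CPM in HBB CB and 30.0 to 47.7 CPM in Ps (−0.26, adjusted p = 0.0746) and a log2 FC of −0.0088 in Pkp4 cells. Its 95% interval in HBB cells ran from −0.52 to −0.0058. Itga11, a collagen-binding chain, rested on 3 to 22 reads per sample and was not called (0.0031, adjusted p = 0.995).

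The β chains split in a similar way. Itgb5, which pairs with Itgav in a vitronectin receptor and gave the most reads of any member, stood at 1443, 1356, 1394 and 1401 CPM in HBB CB and 953, 896, 776 and 876 CPM in HBB Ps. The Pkp4 samples held 1136, 1167, 1126 and 1038 CPM in CB and 743, 769, 751 and 709 CPM in Ps. No Ps sample reached the lowest CB sample of its line, and the log2 FC was −0.68 ± 0.070, adjusted p = 3.21e-07, in HBB cells and −0.59 ± 0.069, adjusted p = 1.81e-06, in Pkp4 cells. Itgb3, the other vitronectin receptor chain, fell alike (−0.74, adjusted p = 8.03e-07, and −0.69, adjusted p = 2.45e-06), from 116 to 124 CPM in HBB CB to 65.2 to 79.2 CPM in HBB Ps.

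Itgb7, a chain best known from lymphocyte homing, was well detected here. It was 123, 117, 129 and 126 CPM in HBB CB and 73.2, 70.6, 65.0 and 72.5 CPM in HBB Ps, and 114, 116, 114 and 109.5 CPM in Pkp4 CB and 74.3, 82.7, 88.3 and 71.8 CPM in Pkp4 Ps. The fractions were separate in both lines, with log2 FC of −0.82 ± 0.069, adjusted p = 4.02e-08, and −0.52 ± 0.069, adjusted p = 6.66e-06. Itgb2, the leukocyte β chain, was at 7.22 to 11.9 CPM in HBB CB and fell in HBB Ps (−0.55, adjusted p = 0.0114), a call that was lost without HBB CB replicate 3 (adjusted p = 0.0503). In Pkp4 cells it was not called (−0.37, adjusted p = 0.123). Of the leukocyte markers the general one, Ptprc, was not in the table, and the 2 that were, Cd68 and Csf1r, summed to 6.87 to 8.04 CPM in HBB CB and 4.08 to 5.52 CPM in HBB Ps. Their part in the values of Itgb7 and Itgb2 was not tested.

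Itgb4, the hemidesmosome chain that pairs with Itga6 in epithelia, was 11.1, 10.999, 15.1 and 12.5 CPM in HBB CB and 9.83, 8.82, 11.2 and 9.38 CPM in Ps, and 17.4, 18.3, 17.9 and 14.5 CPM in Pkp4 CB and 15.1, 11.3, 14.204 and 14.5 CPM in Ps. The fractions overlapped in both lines, and the log2 FC of −0.34, adjusted p = 0.0259, and −0.30, adjusted p = 0.0331, did not survive every omission of a sample. In HBB cells the call was lost without CB replicate 3, Ps replicate 2 or Ps replicate 4 (adjusted p up to 0.115), and in Pkp4 cells without CB replicate 1, 2 or 3 or Ps replicate 2 (up to 0.126). Of its exon bases 7.66% are shared with a non-coding RNA on the opposite strand.

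Itgb1, the chain common to the fibronectin, collagen and laminin receptors, was not called in either line. It was at 143 to 189.8 CPM in HBB CB against 127 to 177 CPM in HBB Ps, and at 131 to 159 against 128 to 172 CPM in Pkp4 cells, so the fractions overlapped. The log2 FC was −0.12 in HBB cells (95% interval −0.35 to 0.12) and 0.071 in Pkp4 cells (−0.16 to 0.30). Itgb8, a chain that activates latent TGF-β, was present at 1.19 to 4.70 CPM over all samples and was not called (0.28, adjusted p = 0.469, and 0.56, adjusted p = 0.0933). With a replicate block in limma it was called higher in Pkp4 Ps (adjusted p = 0.033). Without both CB samples numbered 4, 1 of the 14 integrin subunits was called higher in Pkp4 Ps.

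Itga5 and Itga3 thus fell further than the Itgb1 chain with which they pair. Within a sample the log2 ratio of the Itga5 to the Itgb1 RNA was 2.19 ± 0.16 (SD, n = 4) in HBB CB and 1.17 ± 0.14 in HBB Ps, and 2.21 ± 0.17 and 1.18 ± 0.13 in Pkp4 cells, a difference of −1.01 and −1.02. For Itga3 to Itgb1 the differences were −1.001 and −0.98. Since both RNAs of a ratio come from one sample, these differences do not depend on how the libraries were scaled. The log2 ratio of Itgav to Itgb3 was higher in Ps, by 0.48 in HBB and 0.68 in Pkp4 cells. That of Itgav to Itgb5 was 0.58 higher in Pkp4 cells and differed by 0.42 in HBB cells, which did not pass (exact permutation p = 0.0857).

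In all, 12 ratios of partner RNAs were compared between the fractions in each line. With 4 samples against 4 the 2-sided exact permutation test has 70 relabellings and cannot go below p = 0.0286, and 19 of the 24 tests reached that value, with a Benjamini-Hochberg adjusted p of 0.0361 over the 24. These ratios are made of the same values as the fold changes, for pairs chosen with earlier results known, and are no independent evidence for them. How often pairs of other RNAs reach that value was not counted. The pairs that did not pass were Itgav with Itgb1 in both lines, talin 1 with vinculin in both lines, and Itgav with Itgb5 in HBB cells.

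**Figure D2:**
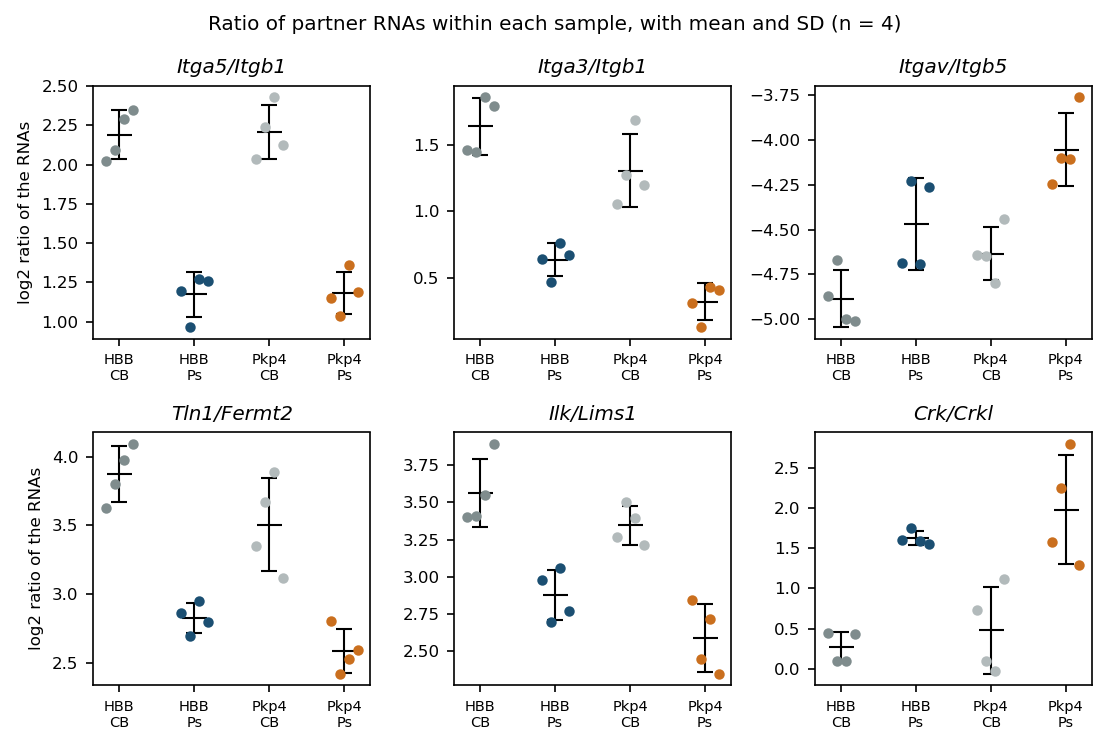
Log2 ratio of the RNAs of 6 partner pairs within each sample (vertical axis), by line and fraction (horizontal axis), with points for samples and bars for the mean and SD of 4 samples. Itga5/Itgb1 sits between 2.02 and 2.35 in HBB CB and between 0.97 and 1.27 in HBB Ps, and Crk/Crkl moves the other way.

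Of the proteins that activate integrins and link them to actin, the talin and vinculin RNAs fell and the kindlin RNA rose in HBB cells. Tln1, which binds the β tail and switches integrins on, was at 320.2 to 377 CPM in HBB CB and 222 to 238 CPM in HBB Ps (−0.61 ± 0.12, adjusted p = 0.000284). In Pkp4 cells it fell by as much (−0.59 ± 0.12, adjusted p = 0.000365), but its CB samples reached down to 242 CPM and its Ps samples up to 253 CPM, so they overlapped. Tln2, its paralogue, fell in HBB cells (−0.32, adjusted p = 0.0147) and missed the threshold in Pkp4 cells (−0.25, adjusted p = 0.0514). Vcl, or vinculin, which reinforces the link between talin and actin, fell in both lines without overlap (−0.64, adjusted p = 0.00212, and −0.68, adjusted p = 0.00148). Of the exon bases of Vcl 25.5% are shared with Ap3m1 on the opposite strand, which was at 10.2 CPM in HBB CB and had a log2 FC of 0.87.

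Fermt2, or kindlin-2, binds the β tail beside talin and moved the other way. It was 28.8, 25.7, 24.0 and 18.8 CPM in HBB CB and 32.4, 34.4, 29.7 and 34.3 CPM in HBB Ps, and 30.3, 28.8, 26.1 and 27.9 CPM in Pkp4 CB and 36.2, 37.2, 32.1 and 36.5 CPM in Pkp4 Ps. Every Ps sample was above every CB sample of its line, with log2 FC of 0.43 ± 0.10, adjusted p = 0.00139, and 0.33 ± 0.10, adjusted p = 0.0101. The log2 ratio of Tln1 to Fermt2 fell by 1.05 from CB to Ps in HBB cells and by 0.92 in Pkp4 cells, whereas that of Tln1 to Vcl differed by 0.039 and 0.086. With reads scaled to totals the Fermt2 log2 FC remained above 0, at 0.195 and 0.060, and was no longer called (adjusted p = 0.174 and 0.683).

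**Figure D3:**
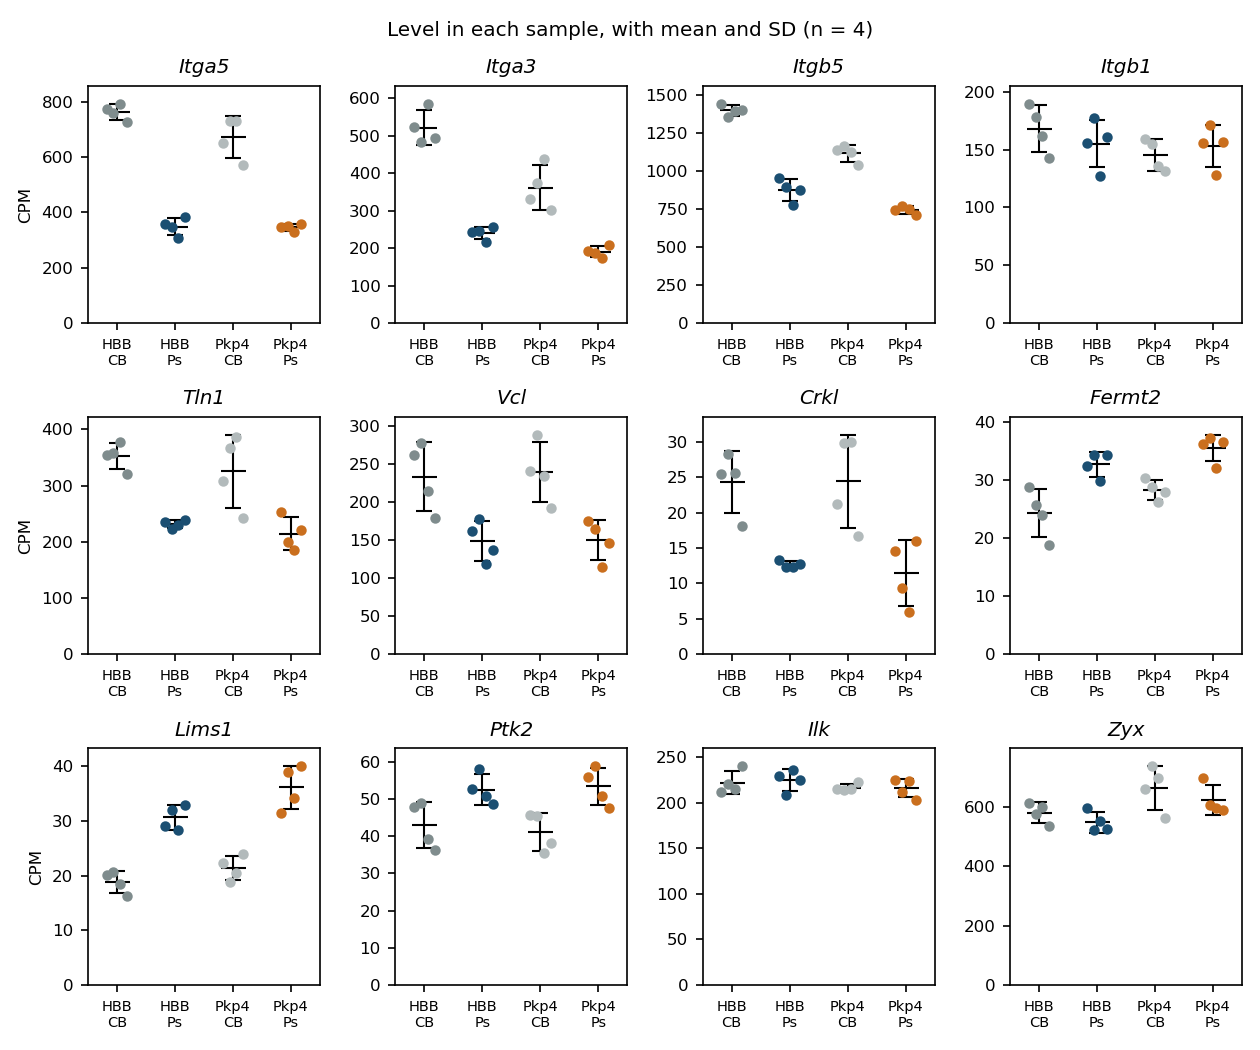
Level in CPM (vertical axis, from 0) of 12 members in each sample, by line and fraction, with points for samples and bars for the mean and SD of 4 samples. The Itga5, Itga3 and Itgb5 points of Ps lie below those of CB in each line, the Fermt2 and Lims1 points above, and those of Itgb1, Ilk and Zyx overlap.

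The complex of ILK, PINCH and parvin, which joins kindlin and the β tail to actin, held the member that rose most. Lims1, or PINCH-1, the LIM-domain adaptor of the complex, measured 20.1, 20.7, 18.4 and 16.2 CPM in HBB CB and 29.1, 32.1, 28.4 and 33.0 CPM in HBB Ps. In Pkp4 cells it measured 22.3, 18.8, 20.4 and 24.0 CPM in CB and 31.4, 38.9, 34.1 and 40.0 CPM in Ps. The fractions were separate in both lines, and the log2 FC was 0.70 ± 0.10, adjusted p = 1.21e-05 (1.62-fold), in HBB cells and 0.75 ± 0.10, adjusted p = 5.38e-06 (1.69-fold), in Pkp4 cells. It was the only member still called higher with reads scaled to totals, at 0.46 and 0.49 (adjusted p = 0.00324 and 0.00181). Its paralogue Lims2, or PINCH-2, was not called (−0.21, adjusted p = 0.134, and −0.041, adjusted p = 0.769).

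Ilk itself, the pseudokinase at the centre of the complex, was at 212 to 241 CPM in HBB CB and 208 to 236 CPM in HBB Ps, with a log2 FC of 0.016 (95% interval −0.11 to 0.15), and −0.0036 (−0.13 to 0.13) in Pkp4 cells. Whether reads were counted by strand is not stated, so this value is uncertain. In the annotation 76.7% of the exon bases of Ilk (chr7:105736592-105742925, plus strand) are shared with Taf10 on the opposite strand, which was at 98.1 CPM in HBB CB with a log2 FC of 0.91, and a further 12.9% with Rrp8 on that strand. Parva, or α-parvin, which binds actin, was at 195 to 210.3 CPM in HBB CB and 213 to 232 CPM in HBB Ps (0.16, adjusted p = 0.0221), and at 202 to 219.6 and 231 to 245 CPM in Pkp4 cells (0.20, adjusted p = 0.00588), without overlap. With reads scaled to totals its log2 FC turned to −0.080 and −0.067. In HBB cells its call was lost without CB replicate 1 or 3 or Ps replicate 1 or 3 (adjusted p up to 0.062). Parvb, or β-parvin, was not called (0.092, adjusted p = 0.461, and 0.20, adjusted p = 0.107).

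Among the 9 kinases and signalling adaptors, 5 fell and 2 rose in HBB Ps, and 4 fell and 2 rose in Pkp4 Ps. In HBB cells these are 55.6% and 22.2% of the 9, against 28.9% and 28.3% of all RNAs, and in Pkp4 cells 44.4% and 22.2%, against 28.5% and 28.2%. The related adaptors Crk and Crkl, which carry signals from Cas and paxillin to Rac and Rap, moved in opposite directions. Crk was 34.5, 30.2, 27.4 and 24.5 CPM in HBB CB and 40.4, 41.3, 37.2 and 37.4 CPM in Ps, and 35.4, 32.1, 29.4 and 36.1 CPM in Pkp4 CB and 43.4, 44.8, 41.1 and 39.2 CPM in Ps. The Ps samples were above all CB samples of their line (0.43 ± 0.094, adjusted p = 0.000789, and 0.35 ± 0.094, adjusted p = 0.00434). With reads scaled to totals its log2 FC was 0.192 and 0.0814 and was not called.

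Crkl was 25.4, 28.3, 25.6 and 18.1 CPM in HBB CB and 13.3, 12.3, 12.4 and 12.8 CPM in Ps, and 21.3, 29.9, 30.0 and 16.7 CPM in Pkp4 CB and 14.5, 9.41, 5.93 and 16.1 CPM in Ps. CB replicate 4 was the lowest CB sample in both lines and Pkp4 Ps replicate 3 the lowest of all samples, but the fractions did not overlap. Its log2 FC was −0.93 ± 0.23, adjusted p = 0.00233, in HBB cells and −1.15 ± 0.24, adjusted p = 0.000621, in Pkp4 cells, where it was the 1 member more than 2-fold lower, against 2.92% of all RNAs. Without Pkp4 Ps replicate 3 it was −0.859, under 2-fold, and without Pkp4 CB replicate 4 Itga5 was also past 2-fold, at −1.03. The log2 ratio of Crk to Crkl rose by 1.36 from CB to Ps in HBB cells and by 1.497 in Pkp4 cells.

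Focal adhesion kinase and Src, the kinases that act together at the adhesion, also parted. Ptk2, which encodes focal adhesion kinase, was 47.7, 48.7, 39.1 and 36.4 CPM in HBB CB and 52.7, 58.0, 50.6 and 48.5 CPM in Ps, and 45.6, 45.4, 35.4 and 38.1 CPM in Pkp4 CB and 56.0, 58.9, 50.7 and 47.6 CPM in Ps. The fractions overlapped in HBB cells, by 1 sample of each, and were separate in Pkp4 cells (0.29 ± 0.11, adjusted p = 0.0248, and 0.38 ± 0.11, adjusted p = 0.0059). In HBB cells the call was lost without CB replicate 3 or 4 or Ps replicate 2 (adjusted p up to 0.0852), and with reads scaled to totals the log2 FC was 0.056 and 0.113.

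Src was 277, 258, 278 and 250.1 CPM in HBB CB and 217, 183, 212 and 206 CPM in Ps, and 183, 207, 217 and 154 CPM in Pkp4 CB and 176, 146, 143 and 164 CPM in Ps. It fell without overlap in HBB cells (−0.38 ± 0.10, adjusted p = 0.0029) and with overlap in Pkp4 cells (−0.27 ± 0.10, adjusted p = 0.0242), where the call was lost without CB replicate 2 or 3 or Ps replicate 2 or 3 (adjusted p up to 0.0968). Bcar1, or p130Cas, the scaffold that Src phosphorylates and Crk binds, fell in both lines without overlap (−0.42, adjusted p = 0.000553, and −0.40, adjusted p = 0.00107).

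Pxn, or paxillin, an early scaffold of the adhesion, was lower in HBB Ps with overlapping fractions (−0.28, adjusted p = 0.0306) and was not called in Pkp4 cells (−0.23, adjusted p = 0.0672). Its HBB call was lost without CB replicate 1, 2 or 3 or Ps replicate 2, 3 or 4 (adjusted p up to 0.0807). Git2, an Arf GTPase-activating protein that binds paxillin, was lower in both lines (−0.27, adjusted p = 0.0259, and −0.30, adjusted p = 0.0164), a call lost in HBB cells without CB replicate 1 or 3 or Ps replicate 1 or 2 (up to 0.0864) and in Pkp4 cells without CB replicate 2 or 3 or Ps replicate 3 (up to 0.0726). Its relative Git1 missed the threshold (−0.21, adjusted p = 0.0502, and −0.17, adjusted p = 0.107). Tgfb1i1, or Hic-5, a paxillin relative, was not called (0.10, adjusted p = 0.294, and 0.058, adjusted p = 0.568).

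Of the zyxin family and the PDZ-LIM proteins, which sit on actin at mature adhesions, 1 of 5 was called in HBB cells, where it was higher, and 0 of 5 in Pkp4 cells, whereas over all RNAs 28.3% and 28.2% were called higher and 28.9% and 28.5% lower. Lpp, a zyxin relative, was 31.2, 28.6, 28.9 and 22.8 CPM in HBB CB and 31.6, 36.4, 30.5 and 33.7 CPM in Ps, and 28.9, 32.6, 28.6 and 26.9 CPM in Pkp4 CB and 32.7, 28.2, 31.0 and 36.0 CPM in Ps. The fractions overlapped in both lines (0.24 ± 0.10, adjusted p = 0.0392, and 0.13 ± 0.10, adjusted p = 0.278). The HBB call was lost without CB replicate 2, 3 or 4 or Ps replicate 2 or 4 (adjusted p up to 0.138), and with reads scaled to totals the log2 FC was 0.0049.

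Zyx, or zyxin, which responds to tension on actin and is the third most abundant member per kilobase, was at 534 to 614 CPM in HBB CB and 521 to 595 CPM in Ps (−0.084, adjusted p = 0.413). The other members of this group, Trip6 (0.067 and 0.090 in HBB and Pkp4 cells), Pdlim5 (0.14 and 0.10) and Pdlim7 (−0.031 and 0.055), had fractions that overlapped. The same held for the Ena/VASP proteins, which promote actin polymerization, with Vasp at −0.058 and −0.18 and Enah at 0.10 and 0.15, and for the tensins, which link integrin tails to actin in fibrillar adhesions. Tns1 was 532, 543, 562 and 419 CPM in HBB CB and 513, 462, 564 and 506 CPM in Ps, and 357, 438, 458 and 281 CPM in Pkp4 CB and 406, 317, 279 and 351 CPM in Ps. Its log2 FC was 0.00062 (95% interval −0.30 to 0.30) and −0.17, and that of Tns3 −0.00075 and −0.22.

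Other adhesion RNAs, surface receptors and matrix ligands were set beside the members. Of 60 further adhesion components, chosen like the other lists with earlier results known, 55 were in the table, and in HBB Ps 13 were higher and 16 lower, with a median log2 FC of −0.063. Kank2, a talin-binding protein of the adhesion rim, was at 2.13, Palld, which encodes the actin cross-linker palladin, at 1.58 and Fermt3, the kindlin of blood cells, at −1.55. Fermt3 ranged from 0.177 to 1.38 CPM over all samples, down to about the detection floor, so its value is not firm. Of 48 other transmembrane receptors of the cell surface 45 were in the table, 32 lower and 3 higher, and their median of −0.69 was nearer to that of the integrins (Lrp1 −1.38, Cspg4 −1.31, Ptprs −1.24). Of 28 matrix ligands of integrins 22 were in the table, 19 lower and 1 higher, with a median of −1.06 (Cyr61 1.41, Col3a1 −1.39, Lamb2 −1.35). Of 30 cytoskeletal proteins made in the cytosol 22 were higher and 0 lower, with a median of 0.35 (Rdx 0.74, Arpc1b 0.69, Vim 0.55). Over all RNAs 28.3% were called higher and 28.9% lower in HBB Ps. Of the further adhesion components 23.6% were higher and 29.1% lower, which is near those shares. The receptors had 6.7% higher and 71.1% lower, and the matrix ligands 4.5% and 86.4%. Among the cytoskeletal proteins 73.3% were higher and 0% lower. The difference between the lists was not tested.

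**Figure D4:**
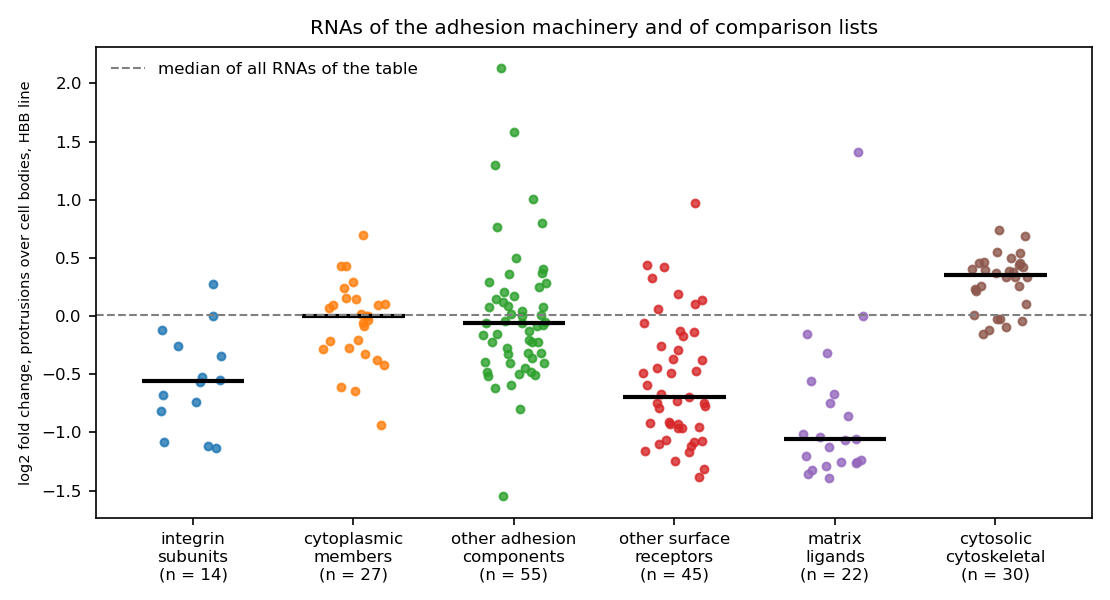
Log2 FC of Ps over CB in HBB cells (vertical axis) for each RNA of 6 lists, with black bars for the median and a dashed line for the median of all RNAs, 0.0060. The 14 integrin subunits have a median of −0.56 and the 27 cytoplasmic members one near 0, the other surface receptors and matrix ligands medians of −0.69 and −1.06, and the cytosolic cytoskeletal proteins 0.35.

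Exon length was weakly related to the changes of the members, with a Spearman's rho of 0.161 and a Pearson's r of 0.176 between log2 length and the HBB log2 FC across the 41 genes. Across the 12321 RNAs with an annotated length both were −0.252. These are correlations across genes of the same libraries, and genes are not independent replicates.

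In Pkp4 cells the members were distributed much as in HBB cells. There 15 members were lower in Ps, against 28.5% of all RNAs, and 5 were higher, against 28.2%, with a median log2 FC of −0.17, or −0.107 without Pkp4 CB replicate 3 and −0.103 without Pkp4 Ps replicate 3. None was above 2-fold, against 5.07%. Of the 18 members lower in HBB Ps 15 were also lower in Pkp4 Ps, which is 83.3% of the former and 100% of the latter, against 87.4% and 88.7% for all lower RNAs. The 3 called in HBB cells alone were Itgb2, Tln2 and Pxn. Of the 6 higher members 5 were shared, all but Lpp, which is 83.3% and 100% against 84.9% and 85.4% for all higher RNAs. Across the 41 genes the log2 FC of the lines had a Pearson's r of 0.957 and a Spearman's rho of 0.963, and 37 of 41 had the same sign, 90.2% against 90.7% of all RNAs. The lines share no samples, but across them samples with the same number moved together, so the lines are not fully independent. Without both CB samples numbered 4 the Pkp4 counts were 6 higher and 21 lower. The share of all RNAs called in that fit was not counted, so the rise is no result about the members alone.

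The change of enrichment between the lines, log2(Diff FC), was tested directly as the log2 FC in Pkp4 cells minus that in HBB cells. No member passed at an adjusted p under 0.05 in limma, and neither did any RNA of the table (0.0%). At an unadjusted p under 0.05 there was 1 member, against 2.33% of all RNAs. This was Itgb7, with 0.30 (95% interval 0.093 to 0.50, limma's unadjusted p = 0.00686), so it was 1.76-fold lower in Ps than CB in HBB and 1.43-fold lower in Pkp4 cells. Its Benjamini-Hochberg adjusted p in limma was 1. The count rose to 2 without Pkp4 CB replicate 3 or Pkp4 Ps replicate 3.

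All 14 integrin subunits had a log2(Diff FC) above 0, of 0.032 to 0.298 with a median of 0.19. Of the cytoplasmic members 14 of 27 were above 0, of the other surface receptors 34 of 45, of all RNAs lower in HBB Ps 2507 of 3734 (67.1%), and of all RNAs 51.6%. The RNAs lower in HBB Ps were chosen on the HBB log2 FC that is subtracted here, so their share is no neutral yardstick. No single subunit passed the adjusted test, and the count of 14 integrin subunits was read off after the values were seen and has no test. Without both CB samples numbered 4 it was 12 of 14 integrin subunits (85.7%), with a median of 0.14. In that fit 12 of 27 cytoplasmic members and 32 of 45 other surface receptors (71.1%) were above 0. The shares were 57.9% for the RNAs lower in HBB Ps and 52% for all RNAs.

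The lines were then compared within each fraction. In cell bodies 8 members were lower in Pkp4 than in HBB cells, against 5.55% of all RNAs, and 1 was higher, against 3.42%. The integrins were 6 of the 8, and 42.9% of the 14 subunits were lower and 7.1% higher. Other lists leaned the same way, with 27.3% of the matrix ligands and 15.6% of the other surface receptors lower and 0% of either higher. The difference between these lists was not tested. In protrusions 4 members were lower, against 4.26% of all RNAs, and 1 was higher, against 2.89%. Without both CB samples numbered 4 the CB counts were 5 lower and 1 higher and the Ps counts 5 and 2, and leaving out HBB CB replicate 1 or 3 or Pkp4 CB replicate 1 reduced the 9 CB calls to 5. These comparisons use the same samples as those of Ps with CB. In Ps the 5 calls fell to between 1 and 3 in 11 of the 16 fits that left out a sample, namely HBB CB replicate 1 or 2, HBB Ps replicate 1, 2 or 4, Pkp4 CB replicate 1 or 2, or any Pkp4 Ps sample. Across the lines the samples that share a number moved together, so a fit with the replicate number as a block was also made. It called 9 lower and 1 higher in CB, adding Parvb (adjusted p = 0.0207), and 4 lower and 3 higher in Ps, adding Itgb2, Itga6 and Lims2 (0.0312, 0.0237 and 0.041) and dropping Itga3 (0.0546).

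Itga3, Itgb5 and Src were lower in both fractions of Pkp4 cells. For Itga3 the log2 FC of Pkp4 over HBB was −0.54 ± 0.10, adjusted p = 0.00213, in CB, where the highest Pkp4 sample was 439 CPM and the lowest HBB sample 484 CPM, and −0.33 ± 0.10, adjusted p = 0.0453, in Ps. For Itgb5 it was −0.33 ± 0.071, adjusted p = 0.00665, and −0.23 ± 0.068, adjusted p = 0.0453, and for Src −0.49 ± 0.10, adjusted p = 0.00326, and −0.38 ± 0.10, adjusted p = 0.0213. The lines did not overlap for these genes in either fraction. The 3 CB calls held in each of the 16 fits that left out a sample. Fits without a sample of the other fraction hardly change the log2 FC and are a weaker check. Of the Ps calls, that of Src held in 11, being lost without HBB Ps replicate 1, 3 or 4 or Pkp4 Ps replicate 2 or 3 (adjusted p up to 0.0746), that of Itga3 in 6 (up to 0.133 without Pkp4 Ps replicate 3) and that of Itgb5 in 2 (up to 0.158 without HBB Ps replicate 1). The 2 fits that kept Itgb5 called left out HBB Ps replicate 3 or Pkp4 CB replicate 4.

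Itgb4 was the 1 member higher in Pkp4 cells in both fractions, with 0.46 ± 0.11, adjusted p = 0.0139, in CB and 0.50 ± 0.13, adjusted p = 0.0234, in Ps. In CB the lines overlapped, at 10.999 to 15.1 CPM in HBB and 14.5 to 18.3 CPM in Pkp4 cells, and the call was lost without HBB CB replicate 1 or 2 (adjusted p up to 0.0573). In Ps they did not overlap, and the call was lost without HBB Ps replicate 1, 2 or 4 or Pkp4 Ps replicate 1, 3 or 4 (up to 0.0675). Of the epithelial markers Cdh1 and Krt8, the 2 of 6 in the table, 1 was called higher in Pkp4 cells in each fraction. In CB this was Cdh1, at a log2 FC of 0.52 (adjusted p = 0.0247), whereas Krt8 was at 0.43 (adjusted p = 0.0635). Their sums were 11.8 to 14.8 CPM in HBB CB against 15.96 to 20.4 CPM in Pkp4 CB, and 10.70 to 14.68 against 14.66 to 19.62 CPM in Ps, where the lines overlapped. Epcam was not in the table, and their part in the Itgb4 result was not tested. Itga10 was lower in Pkp4 CB in each of the 16 fits (−0.42 ± 0.10, adjusted p = 0.00895). In Ps its log2 FC was −0.18, adjusted p = 0.424, and its levels overlapped between the lines.

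The remaining CB calls were less firm. Itga11 was 0.630, 0.673, 0.668 and 0.700 CPM in HBB CB and 0.189, 0.359, 0.288 and 0.273 CPM in Pkp4 CB, which is 15 to 22 against 5 to 9 reads (−1.31 ± 0.36, adjusted p = 0.0281), and was lost without HBB CB replicate 1, 2 or 3 or Pkp4 CB replicate 1 or 4 (adjusted p up to 0.104). Itgb2 (−0.65, adjusted p = 0.0202) was lost without HBB CB replicate 3 or Pkp4 CB replicate 1, 2 or 4 (up to 0.0853), Itga7 (−0.44, adjusted p = 0.0203) without HBB CB replicate 1 or 3 or Pkp4 CB replicate 1 or 3 (up to 0.0695), and Pdlim7 (−0.22, adjusted p = 0.045) in 11 of 16 fits (up to 0.139 without HBB CB replicate 3). Itga5, Itgb1, Tln1 and Vcl were not called between the lines in CB, at −0.19, −0.21, −0.14 and 0.044.

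In protrusions Tns1 was the member with the smallest adjusted p between the lines (−0.61 ± 0.14, adjusted p = 0.0112). Its Pkp4 Ps samples, at 279 to 406 CPM, were all below its HBB Ps samples, at 462 to 564 CPM, and the call held in each of the 16 fits. In CB its log2 FC was −0.44, adjusted p = 0.0594, with overlapping samples. Whether the difference between the lines itself differs between the fractions is what log2(Diff FC) tests, and for Tns1 this was −0.17 (95% interval −0.58 to 0.24).

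**Figure D5:**
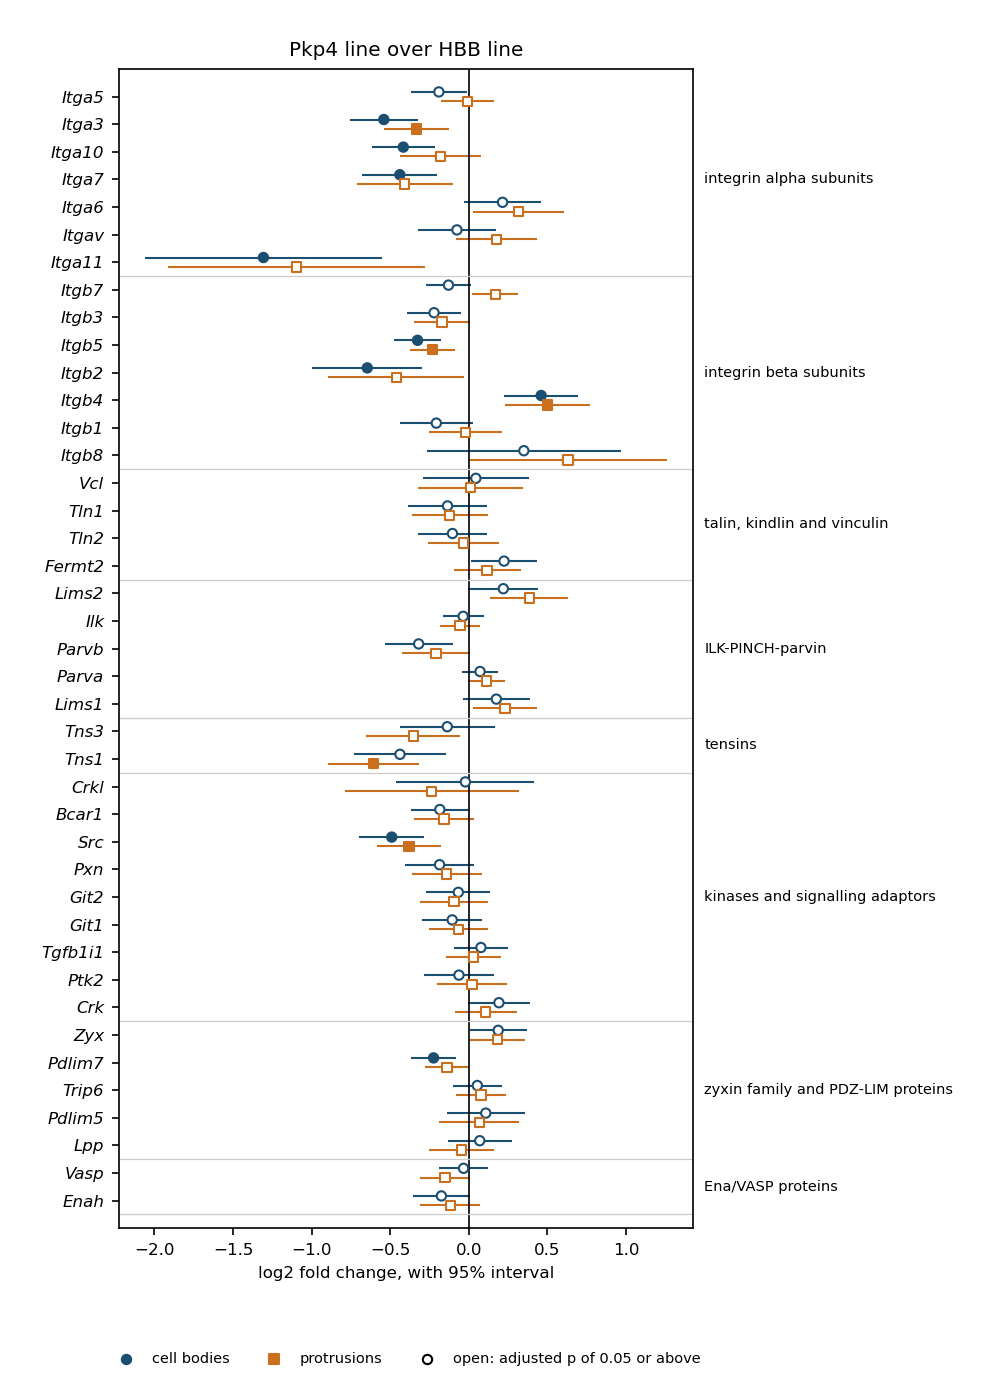
Log2 FC of the Pkp4 line over the HBB line for the 41 members, ordered by role, in CB (blue circles) and Ps (orange squares), with bars for the 95% interval and open symbols for an adjusted p of 0.05 or above (n = 4 per group). Itga3, Itgb5 and Src are filled left of 0 and Itgb4 right of 0 in both fractions. Most cytoplasmic members are open, as are 7 of the 14 integrin subunits in CB and 11 in Ps.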

How the data were processed

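RNA-Seq was analysed in 16 samples, 4 each of protrusions and cell bodies of the HBB and Pkp4 lines, grouped by the labels and column names. The authors aligned paired reads to mm10 with STAR 2.4.2a in 2-pass mode, counted reads per gene with Rsubread on GENCODE annotation, and deposited limma-voom log2 CPM (limma 3.26.1, bcl2fastq 1.8.4 for base calls) for 12900 RNAs. In every deposited row the highest sample was above 0.5 CPM (lowest 0.501). How strand was set in counting and how library sizes were scaled are not given in the sources used here. The labels call the kit a total RNA kit and the paper an mRNA kit.

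Steps between low values gave the reads behind each log2 CPM. The share within 0.01 of a whole number was 100%, and voom on these reads differed from the deposited values by at most 5.33e-09. They entered limma-voom (limma 3.58.1, R 4.3.3) with the authors' scaled library sizes, 1 mean per group and no block, as the study's methods name none. Adjusted p-values are Benjamini-Hochberg over all 12900 RNAs. The fit was also run on simulated reads. These had independent noise and no effect of the replicate number, so they do not check the p-values where real samples move together. Intervals and floors cover counting error and the spread between these samples only.

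Every integrin subunit and cytoplasmic member is named, and 14 are given in every sample. The members, the other lists, the partner pairs and these choices were made with earlier results of these data known. Across the lines, samples that share a number moved together (correlations of 0.331 to 0.628 between cell bodies and 0.196 to 0.392 between protrusions over 10154 RNAs), and the numbers come from the sample labels. Annotation of exons is GENCODE release M21 for mm10, with 41 of 41 members and 12321 of 12900 RNAs matched by symbol, and CPM per kb uses its exon union. Alternatives were other scalings, weights, pseudocounts, filters, thresholds, a replicate block and leaving out each sample. Leaving out both cell-body samples numbered 4 was added after seeing the data. The share of all RNAs called was counted in the main fit only, so member counts under the alternatives have no such share beside them. The APC knockdown samples of the study were not analysed here.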

Additional observations from a re-analysis of the deposited data

Results flagged for a closer look

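For each of the 14 members given in every sample, the lowest and highest of the 4 samples of each group were compared with the others by Dixon's criterion, and 2 of 56 groups held a sample apart, where chance gives about 1 in 20. Fermt2 was lowest in Pkp4 Ps replicate 3, at 32.1 CPM against 36.2 to 37.2 CPM in the others, and still above every Pkp4 CB sample. Itga10 was lowest in HBB Ps replicate 3, at 6.55 CPM against 8.70 to 9.11 CPM, and without that sample it was still called lower in HBB Ps.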

How the results depend on the processing

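With reads scaled to totals the members higher in Ps fell to 1 in HBB and 1 in Pkp4 cells, the lower members rose to 27 in each line, the median member log2 FC moved to −0.443 and −0.438, and Parva reversed to −0.0801 in HBB and −0.0669 in Pkp4 cells, as every log2 FC shifted down. How many of all RNAs were called with totals was not counted. At an adjusted p under 0.01, 3 members were higher in HBB Ps, 4 differed between the lines in CB and 0 in Ps. With a 2-fold threshold the counts were 0 higher and 3 lower in HBB cells and 0 higher and 1 lower in Pkp4 cells. With quantile normalization 2 members had a changed enrichment and 3 differed between the lines in Ps. The cause was not tested for the last 2.

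Leaving out each of the 16 samples gave 3 to 6 members higher and 14 to 19 lower in HBB Ps, 5 to 6 higher and 12 to 21 lower in Pkp4 Ps, 1 to 2 with a changed enrichment, 5 to 10 differing between the lines in CB and 1 to 6 in Ps, where 11 samples reduced the 5 calls to 3 or fewer. The median log2 FC ranged from −0.229 to −0.136 in HBB cells, the latter without HBB Ps replicate 4, and from −0.252 to −0.103 in Pkp4 cells. Of member calls 830 were kept and 98 lost in these fits. These totals include fits without a sample of a group outside the comparison, which hardly change the log2 FC and act through the shared spread. An example is Itga3 between the lines in Ps, still at −0.333 without HBB CB replicate 1 but no longer called. Under every setting 15 of 24 calls held in HBB cells, 13 of 20 in Pkp4 cells, 4 of 9 between the lines in CB and 1 of 5 in Ps.

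With a replicate block for the numbers within each line, 4 members were higher and 18 lower in HBB Ps, and 6 and 15 in Pkp4 Ps. In HBB cells the calls of Git2, Parva and Lpp were lost (adjusted p = 0.0677, 0.054 and 0.078) and that of Itgav was gained (0.0441). In Pkp4 cells that of Src was lost (0.0502), and those of Itgb2 and Itgb8 were gained (0.039 and 0.0332). Whether Ps and CB samples of one number come from one experiment is not stated. In HBB cells their deviations correlated by 0.112, 0.389, 0.0455 and 0.164, with a mean of 0.178 against −0.0621 for other numbers. In Pkp4 cells the lowest was −0.362, and the mean was −0.161 against 0.0611. In HBB cells 2 of 4 Ps samples correlated best with their own number and in Pkp4 cells 0 of 4, so these values do not settle the pairing. The block changed no other call between the lines than those given above. At 3 to 22 reads a sample, Itga11 allows no firm statement.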
